A study of Mus musculus with 10 samples.

Results

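The Rag GTPases, the folliculin complex and the MiT/TFE transcription factors form one regulatory circuit on the lysosome, and their transcripts were examined in kidneys of old mice that carry an active form of RagC. The 10 genes were chosen by symbol for their place in this circuit. They are Rraga, Rragb, Rragc and Rragd, which encode the 4 Rag GTPases, Flcn, Fnip1 and Fnip2, which encode folliculin and its binding partners, and Tfeb, Tfe3 and Mitf. Of these, 9 were found among the 13299 genes of the deposited table, and all 9 were among the 13236 genes tested. Rragb was not in that table and was not analysed here.

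Whole kidneys of 5 Rragc S74N/+ mice and 5 Rragc +/+ mice, all C57BL/6 and aged 1.5 years, were profiled by 3′ mRNA sequencing. The S74N change was knocked into exon 1 of the endogenous Rragc gene together with silent changes, so 1 allele is altered in every cell of the body and under its own promoter, while the other allele is wild-type. Homozygotes are not viable, so no kidney without a wild-type allele was compared. The labels gave no replicate numbers and did not give the sex or the litter of the mice.

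As background, a pair of Rag GTPases, RagA or RagB bound to RagC or RagD, sits on the lysosome and brings the kinase complex mTORC1 there when amino acids are plentiful. Folliculin with FNIP1 or FNIP2 acts on RagC and RagD and drives them to the GDP-bound form, which is the active one, and S74N mimics that form. Active RagC or RagD also presents TFEB and TFE3 to mTORC1, which phosphorylates them and holds them in the cytoplasm. TFEB and its relatives bind E-boxes in the promoters of lysosomal and autophagy genes, and Rragd and Flcn are themselves among the genes they are known to induce, so that the circuit contains a feedback loop. In people, variants of RRAGD cause a disease of the renal tubule with loss of magnesium. The question put to the data was whether transcripts of the loop, Rragd and Flcn above all, were lower where RagC is active.

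The E-box core bound by TFEB, TFE3 and MITF reads CACGTG and is the same on both strands. It was searched in RefSeq promoter windows of 300 bases, 250 before and 50 after each annotated start, on build GRCm38.p6. All 10 genes matched a window, and 3 of them held the core, Fnip1, Rragb and Rragc, against 8.09% of the 27025 genes with a window. Rragb held it 3 times. The windows of Rragd and Flcn did not hold these letters, and neither did those of Rraga, Fnip2, Tfeb, Tfe3 and Mitf. Among the 10 genes none held the longer form TCACGTGA, found in 1.12% of genes, and none held the related CATGTG, searched on both strands and found in 15.89%. The stretches of the measured genes that held the core are shown because Fnip1 had the lowest p of the 9 genes tested and Rragc is the altered gene. The core is in capitals, each stretch has 30 bases and lies on the + strand, and its core starts 75 bases before the start of Fnip1 and 112 bases before that of Rragc.
Fnip1, GRCm38.p6 chr11:54438092-54438121: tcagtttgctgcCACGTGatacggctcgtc
Rragc, GRCm38.p6 chr4:123917309-123917338: ggtgattccgggCACGTGatagtaccactt
The reads themselves were aligned by the authors to another build, GRCm39, and a match of letters is not evidence of a bound site. Nor is a window of 300 bases without the exact letters evidence that a gene, Rragd and Flcn included, lacks such a site.

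Reads assigned to the 13299 genes of the table, recovered from its values, numbered between 4488493 and 5797251 per kidney. Values are normalized counts, which are read counts divided by a size factor of each library, and 1 read was worth between 0.873 and 1.12 normalized counts. Because the libraries hold the 3′ ends of transcripts, a count does not grow with transcript length. Flcn was covered by 9 to 31 reads per kidney and Rraga by 19 to 76, whereas Fnip1 was covered by 138 to 255, so the first 2 carry the largest counting error. Among marker genes of kidney cell types, all 9 tested markers of the distal convoluted tubule fell in Rragc S74N/+ kidneys, and their summed level was 6087 to 7656 normalized counts in Rragc +/+ and 1942 to 3039 in Rragc S74N/+ kidneys. Of the thick ascending limb markers, limma called 5 of 10 lower and none higher, with sums of 11751 to 15887 and 5347 to 11684. The mean of Umod went from 5806 to 2119 and that of Egf from 3201 to 1560. By mean log2 level 8 of the 10 were lower. Slc12a1, with means of 3130 and 3318, and Cldn16, with 53.3 and 76.1, were not. Of the macrophage markers, limma called 5 of 12 higher and none lower, while 3 of the 12 had a lower mean log2 level. Their sums were 1405 to 1986 and 2660 to 3541, of which Cd74 alone had means of 910 and 1864. In whole tissue, fewer cells of a type and less RNA per cell cannot be told apart, and the part of these shifts in the values below was not tested.

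None of the 9 genes passed the threshold between genotypes, although 8 of them had a lower mean log2 level in Rragc S74N/+ kidneys and only Tfe3 a higher one. Differences are given as log2 fold changes, the mean log2 level in Rragc S74N/+ minus that in Rragc +/+ kidneys. In the limma fit 6.03% of all tested genes passed at an adjusted p under 0.05, and 2.58% passed with a lower level. At an unadjusted p under 0.05, 4 of the 9 genes were lower, Rraga, Flcn, Fnip1 and Mitf, where 12.8% of all genes were. The median log2 fold change was -0.39 over the 9 genes and -0.01 over all genes tested, of which 51.3% were lower. For none of the 9 genes were the genotypes free of overlap, against 8.16% of all genes. edgeR on the whole reads of all 10 kidneys also called 0 of the 9 genes while calling 6.3% of all genes. DESeq2 on the same reads called 1, Rraga, while calling 10.2%.

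**Figure D1:**
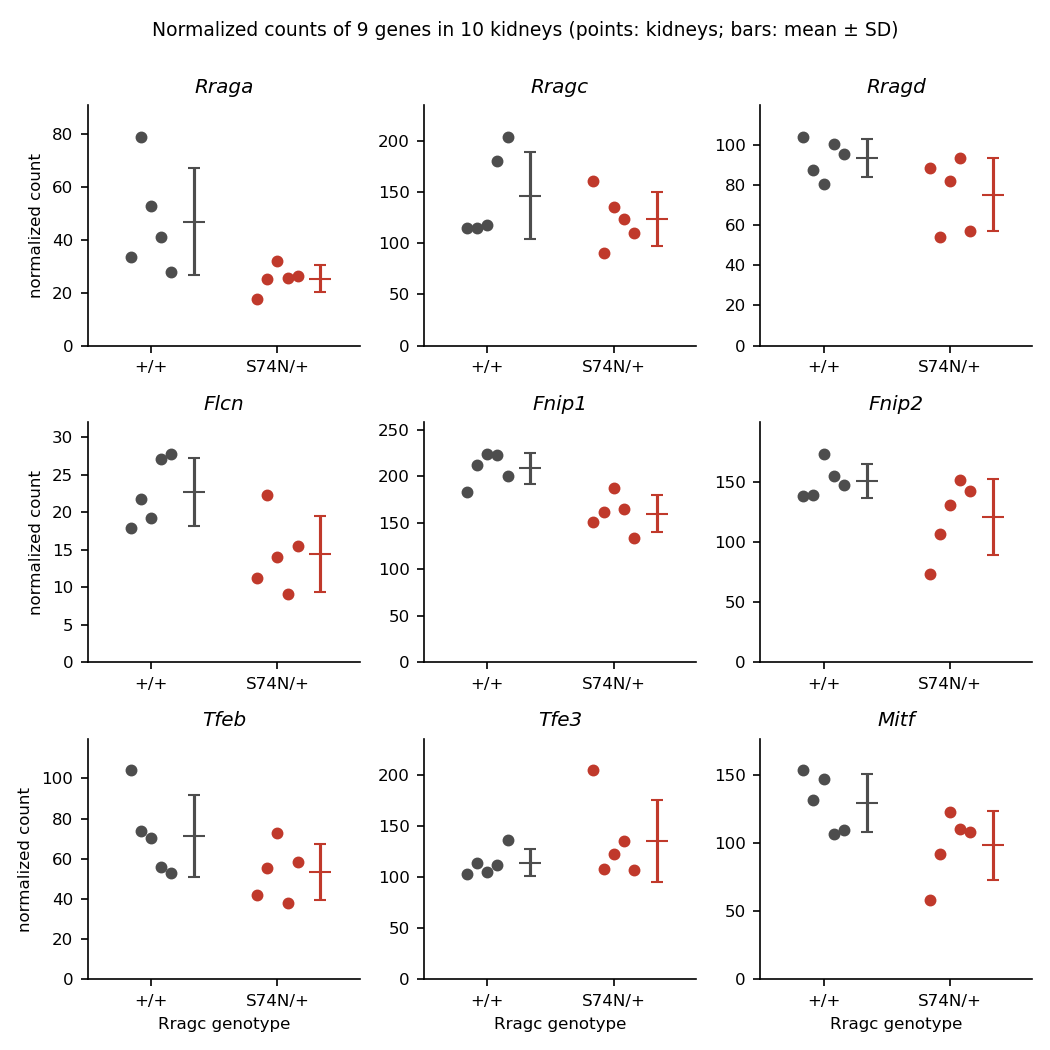
Normalized counts of the 9 measured genes in each kidney (y axis, starting at 0) by Rragc genotype (x axis). Each point is 1 kidney, drawn from replicate 1 on the left to replicate 5 on the right, and the bars give the mean ± SD of 5 kidneys. The genotypes overlap for every gene, and 4 of the 5 S74N/+ kidneys lie below all +/+ kidneys for Rraga, Flcn and Fnip1.

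**Figure D2:**
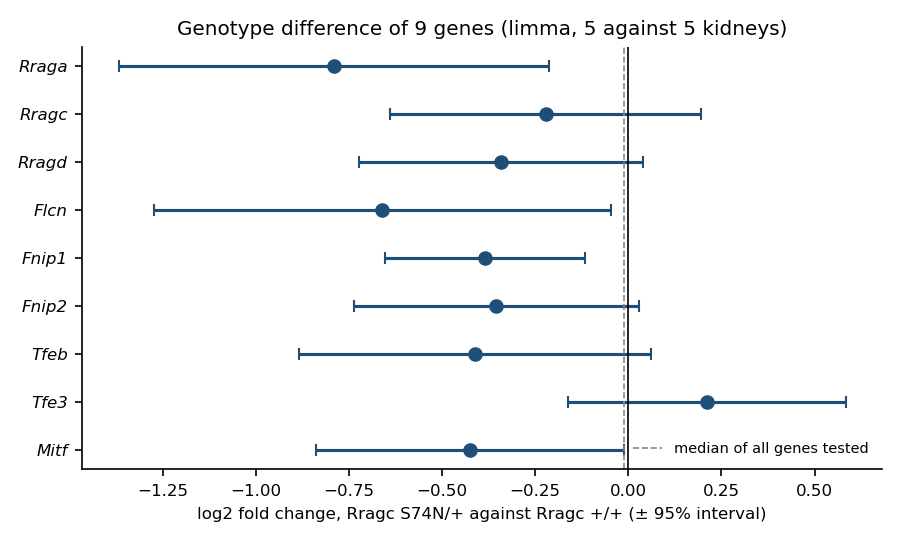
Log2 fold change of Rragc S74N/+ against Rragc +/+ kidneys (x axis) for each gene (rows) from the limma fit, with its 95% interval, not adjusted for multiple tests. The point of Tfe3 lies to the right of 0, those of the other 8 genes lie to the left, and the intervals of Rraga, Flcn, Fnip1 and Mitf do not reach 0.

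The Rag GTPases were examined first. Rragc, the gene that carries the S74N change, had 115, 114, 118, 181 and 204 normalized counts in Rragc +/+ replicates 1 to 5 and 160.4, 90.1, 135, 123 and 109.8 in Rragc S74N/+ replicates 1 to 5. The widest spread was among the wild-type kidneys, of which replicates 4 and 5 stood above all mutant kidneys, while 3 of 5 mutant kidneys lay within the wild-type range. Its log2 fold change was -0.22 ± 0.20 (SE), with a 95% interval from -0.64 to 0.20 (limma, adjusted p = 0.508). It was -0.14 without wild-type replicate 4, -0.09 without wild-type replicate 5 and -0.12 without mutant replicate 2. Reads from the 3′ end do not tell the altered allele from the wild-type one, so they do not check the genotype.

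Rragd encodes RagD, the partner that can take the place of RagC and that TFEB is known to induce. It had 104, 87.4, 80.6, 100.4 and 95.5 normalized counts in Rragc +/+ kidneys and 88.6, 54.3, 82.0, 93.7 and 57.3 in Rragc S74N/+ kidneys. Replicates 2 and 5 of the mutant group were below every wild-type kidney, and the other 3 lay inside the wild-type range. The mean was 93.6 ± 9.57 in wild-type and 75.2 ± 18.2 in mutant kidneys (SD, n = 5 each). The log2 difference of -0.34 ± 0.18 (SE) was not past the threshold (limma, adjusted p = 0.247; exact permutation test p = 0.0952), and its 95% interval reached from a change of -39.4% to one of 2.83%.

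Rraga encodes RagA, which pairs with RagC or RagD and is the side of the dimer that binds mTORC1. It had 33.6, 79.1, 52.8, 41.0 and 27.9 normalized counts in Rragc +/+ kidneys and 17.7, 25.2, 32.0, 25.5 and 26.2 in Rragc S74N/+ kidneys. All 5 mutant kidneys were below the wild-type median and 4 were below every wild-type kidney, with replicate 3 the exception. Its log2 difference of -0.79 ± 0.27 (SE) was the largest of the 9 in size and did not pass in limma (adjusted p = 0.0904) or in edgeR (adjusted p = 0.073). It passed in DESeq2 on the same 10 kidneys, at a log2 difference of -0.89 (adjusted p = 0.0413). Without Rragc +/+ replicate 2, the highest kidney, the log2 fold change was -0.58 and the adjusted p of limma was 0.236.

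The paralog balance between RagC and RagD was then compared as the share of Rragd in the sum of Rragc and Rragd counts, a ratio that does not depend on how a library was scaled. It was 47.4%, 43.3%, 40.6%, 35.7% and 31.9% in Rragc +/+ kidneys and 35.6%, 37.6%, 37.8%, 43.2% and 34.3% in Rragc S74N/+ kidneys. All mutant values lay within the wild-type range. The means of 39.8% ± 6.14 and 37.7% ± 3.40 (SD, n = 5 each) differed by -2.10 percentage points (exact permutation test, p = 0.516, 0.688 after adjustment over the 4 shares computed). The difference moved with single kidneys and was -0.18 without wild-type replicate 1, -1.22 without wild-type replicate 2, -4.07 without wild-type replicate 5, -3.47 without mutant replicate 4 and -1.25 without mutant replicate 5.

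The folliculin complex was examined next. Folliculin, encoded by Flcn, is the GTPase-activating protein of RagC and RagD, and Flcn is the other member of the loop that TFEB is known to induce. Its counts were 17.9, 21.8, 19.2, 27.1 and 27.9 in Rragc +/+ and 11.2, 22.3, 14.0, 9.17 and 15.5 in Rragc S74N/+ kidneys. Of the mutant kidneys, 4 were below every wild-type kidney, and replicate 2, at 22.3, was above 3 of them. The mean was 22.8 ± 4.52 in wild-type and 14.4 ± 5.04 in mutant kidneys (SD, n = 5 each). The log2 difference of -0.66 ± 0.29 (SE) was not past the threshold (limma, adjusted p = 0.167; exact permutation test p = 0.0397, 0.119 after adjustment over the 9 genes). At this depth its 95% interval was wide, from -1.27 to -0.05.

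Fnip1 encodes a binding partner that folliculin needs to act on RagC, and it was the most abundant of the 9 genes. It had 183.5, 212, 225, 223 and 200.0 normalized counts in Rragc +/+ and 151, 162, 188, 165 and 134 in Rragc S74N/+ kidneys. Of the mutant kidneys, 4 were below every wild-type kidney, and replicate 3, at 188, was above wild-type replicate 1 alone. Its log2 fold change was -0.39 ± 0.13 (SE), with the smallest standard error of the 9 genes and a 95% interval from -0.65 to -0.12 (limma, adjusted p = 0.0786; exact permutation test p = 0.0159, 0.0714 after adjustment over the 9 genes). In DESeq2 on all 10 kidneys its adjusted p was 0.0502. Scaled to equal totals, its log2 fold change was -0.31 (limma, adjusted p = 0.164). Without 1 kidney, its adjusted p in limma ran from 0.0542 to 0.163.

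Fnip2 encodes the alternative partner. It had 139, 139, 174, 155 and 147 normalized counts in Rragc +/+ and 73.7, 107, 131, 152 and 143 in Rragc S74N/+ kidneys. Mutant replicates 4 and 5 lay among the wild-type kidneys and the other 3 below them, with replicate 1 the lowest. The log2 fold change was -0.35 ± 0.18 (SE, limma, adjusted p = 0.229), and it was -0.19 (adjusted p = 0.457) without mutant replicate 1. The share of Fnip2 in the sum of Fnip1 and Fnip2 was 42.0% ± 1.60 in wild-type and 42.6% ± 7.35 in mutant kidneys (SD, n = 5 each; exact permutation test, p = 0.889). The wild-type shares ran from 39.6% to 43.6% and the mutant ones from 32.8% to 51.6%, so the mutant kidneys differed more among themselves, a difference in spread that was not tested.

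The MiT/TFE factors, which mTORC1 restrains through RagC and RagD, did not share a sign. Tfeb had 104, 73.9, 70.1, 55.9 and 52.7 normalized counts in Rragc +/+ and 42.0, 55.2, 73.0, 37.7 and 58.3 in Rragc S74N/+ kidneys. Only mutant replicates 1 and 4 were below the wild-type range. The log2 fold change was -0.41 ± 0.22 (SE, limma, adjusted p = 0.26), and it was -0.27 (adjusted p = 0.508) without wild-type replicate 1.

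Mitf, whose product directs pigment cells and osteoclasts and binds the same E-boxes, had 153, 131, 147, 107 and 109 normalized counts in Rragc +/+ and 57.8, 92.1, 123, 110.0 and 108 in Rragc S74N/+ kidneys. Its log2 fold change was -0.43 ± 0.20 (SE, limma, adjusted p = 0.185). Mutant replicate 1 was the lowest kidney, and without it the log2 fold change was -0.25 (adjusted p = 0.355).

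Tfe3, whose product acts beside TFEB in most tissues, had 103, 113, 105, 112 and 136 normalized counts in Rragc +/+ and 204, 108, 122, 135 and 107 in Rragc S74N/+ kidneys. Mutant replicate 1 stood above all others and the other 4 lay within the wild-type range. The log2 fold change was 0.21 ± 0.18 (SE, limma, adjusted p = 0.477), and it was 0.05 (adjusted p = 0.879) without that kidney.

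Set against each other, Tfe3 made up 36.6% ± 6.74 of the sum of the 3 factors in wild-type and 46.9% ± 11.9 in mutant kidneys (SD, n = 5 each). The difference of 10.3 percentage points did not pass (exact permutation test, p = 0.111, 0.413 after adjustment over the 4 shares), and it was 5.26 percentage points without mutant replicate 1, whose share was 67.2%. The share of Tfeb was 22.4% ± 4.17 and 18.6% ± 4.66, a difference of -3.77 percentage points (exact permutation test, p = 0.206, 0.413 after adjustment), which was -2.14 without wild-type replicate 1 and -2.44 without mutant replicate 4.

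**Figure D3:**
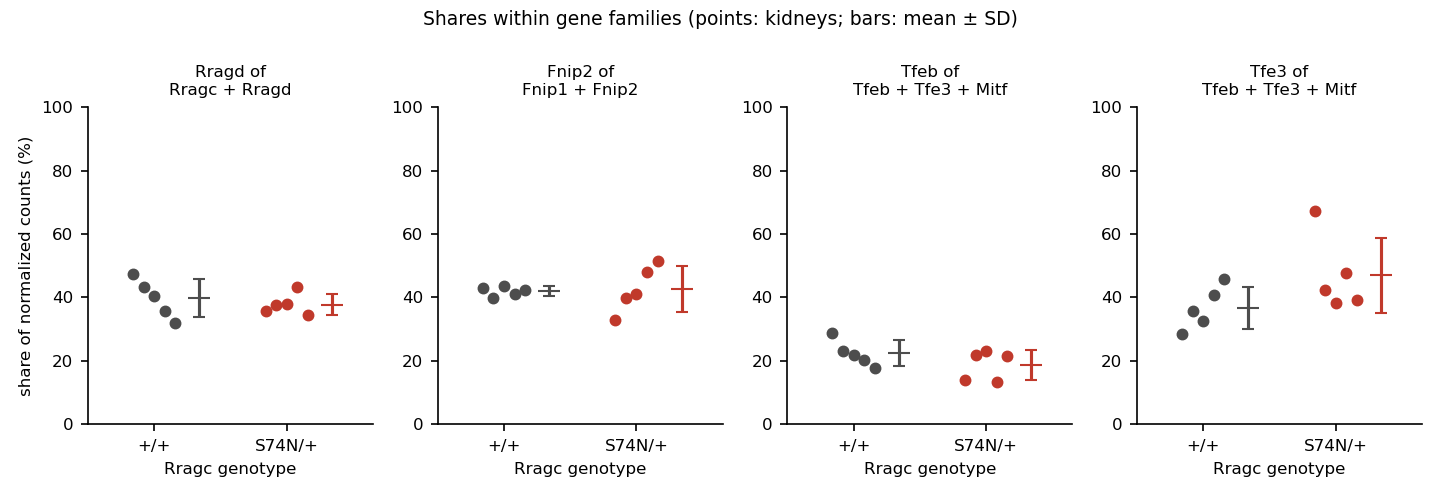
Share of 1 gene in the summed normalized counts of its family (y axis, percent, 0 to 100) in each kidney, by Rragc genotype (x axis), with points for kidneys and bars for the mean ± SD of 5. The genotypes overlap for all 4 shares, and the S74N/+ kidney with a Tfe3 share of 67.2% is replicate 1.

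The kidneys did not share one pattern across the circuit. Among Rragc S74N/+ kidneys, replicate 1 was the lowest for Rraga, Fnip2 and Mitf and the highest for Rragc and Tfe3, whereas replicate 3 was the highest for Rraga, Fnip1, Tfeb and Mitf. After the group means were removed, Fnip2 and Mitf followed each other most closely over the 10 kidneys (Pearson r = 0.779), followed by Rragc and Tfe3 (r = 0.718). Other pairs ran against each other, with Tfe3 and Mitf the strongest of all pairs by size (r = -0.785), then Rragd and Flcn (r = -0.674), the 2 genes of the feedback loop, and Fnip2 and Tfe3 (r = -0.663). These values describe 10 samples that share a size factor for each library. Mutant replicate 1 is extreme for both genes of each named pair but Rragd and Flcn, for which mutant replicate 2 had the lowest Rragd and the highest Flcn of its group.

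In Rragc +/+ kidneys the order of mean normalized counts was Fnip1, Fnip2, Rragc, Mitf, Tfe3, Rragd, Tfeb, Rraga and Flcn. Fnip1 exceeded Fnip2 in 5 of 5 kidneys with no overlap of their ranges, by 57.7 ± 11.8 (SD of the difference within kidneys). Each later pair of neighbours in that order overlapped in range. How well a 3′ end is captured can differ between genes, so this order is one of counts and may not be one of transcripts.

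The sample titles carry numbers that fall under 200 for 3 kidneys of each genotype and over 200 for 2 of each, and the labels do not say what these numbers mark. Within both ranges the mean log2 level was lower in mutant kidneys for 6 of the 9 genes, Rraga, Rragd, Flcn, Fnip1, Fnip2 and Tfeb. For Rragd the difference was -0.29 under 200 and -0.41 over 200, and for Fnip1 it was -0.31 and -0.50. Flcn differed by -0.34 and -1.13. Rragc, Tfe3 and Mitf had opposite signs in the 2 ranges. Rragc differed by 0.11 under 200 and -0.72 over 200, and Mitf by -0.72 and 0.01. No test was made within a range.

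Genes around the circuit were then counted on fixed lists. Of 7 components of Ragulator and the lysosomal scaffold that anchors the Rag GTPases, 6 were lower and none passed in limma, with 3 at an unadjusted p under 0.05, where 25.4% of all genes were in either direction. edgeR called none and DESeq2 called 1. Lamtor1, which tethers Ragulator to the membrane, came closest, with 928 ± 118 normalized counts in wild-type and 608 ± 181 in mutant kidneys (SD, n = 5 each; limma, adjusted p = 0.0518), and it was named after its values were seen. Of the 17 genes of GATOR1, GATOR2, KICSTOR and the amino acid sensors, which control RagA and RagB, 8 were lower and none passed in limma, edgeR or DESeq2, nor at an unadjusted p under 0.05. Their median log2 fold change was 0.00. Of 10 genes of mTORC1 and its direct regulators, 7 were lower and none passed in limma, with 2 at an unadjusted p under 0.05, none in edgeR and 1 in DESeq2. Of 23 kinases, phosphatases and carriers of TFEB and TFE3, none passed in limma or edgeR, with 8 at an unadjusted p under 0.05, 5 of them lower and 3 higher, and 2 calls by DESeq2, 1 in each direction.

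Among 13 other proteins that act on Rag GTPases or folliculin, 2 fell and none rose in limma and in edgeR. In limma 2.58% of all tested genes passed with a lower level. DESeq2 called the same 2 lower and also called Lars, a leucyl-tRNA synthetase that senses leucine, as higher, at a log2 fold change of 0.47 (adjusted p = 0.0493, against 0.0769 in limma), and it is named here after its values were seen. The 2 genes that fell belong to the ATG8 family, whose GABARAP branch binds the FLCN and FNIP complex on damaged or stressed lysosomes. Gabarapl1 had 3583 ± 458 normalized counts in wild-type and 2272 ± 334 in mutant kidneys (SD, n = 5 each), a log2 difference of -0.66 ± 0.13 (SE, limma, adjusted p = 0.00813). Gabarap had 685 ± 71.4 and 491 ± 54.6, a log2 difference of -0.48 ± 0.11 (SE, limma, adjusted p = 0.0221). The genotypes did not overlap for either gene. The third member, Gabarapl2, was at 444 ± 82.3 and 364 ± 64.6 and did not pass (limma, adjusted p = 0.243).

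Known targets of TFEB and its relatives form the downstream arm of the loop. Of these, limma called 8 of the 37 tested lower and none higher, where it called 2.58% of all tested genes lower. A short list of TFEB targets that the study supplied had 17 genes beside those of the circuit itself. Of these, 3 fell, with Gabarap from the list above among them, none rose, and 14 were lower. That list came with the study and is not independent evidence of a direction. A further list of 20 MiT/TFE targets had 5 that fell and none that rose, and 12 were lower. Over both lists 26 of 37 genes had a lower mean log2 level, with a median log2 fold change of -0.20 against -0.01 over all genes. All lists around the circuit together held 105 tested genes, of which 9 passed, all of them lower, a share of 8.57%. Over all tested genes 6.03% passed in either direction, and 2.58% passed with a lower level.

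Of the lysosomal hydrolases among these targets, Tpp1, a peptidase, went from 533 ± 145 to 258 ± 107 normalized counts (SD, n = 5 each), a log2 difference of -1.17 ± 0.31 (SE, limma, adjusted p = 0.0392). Hexa, the alpha subunit of beta-hexosaminidase, went from 98.1 ± 16.2 to 51.9 ± 20.6, a log2 difference of -0.96 ± 0.22 (limma, adjusted p = 0.0199). The sialidase gene Neu1 fell by 0.55 on the log2 scale and the cathepsin gene Ctsb by 0.39 (limma, adjusted p = 0.0354 for both). Psap, which encodes the precursor of the saposins that help to degrade sphingolipids, was among the most abundant targets at 5701 ± 288 and 4222 ± 728 normalized counts (limma, adjusted p = 0.0485).

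Clcn7, a chloride and proton exchanger of the lysosome, went from 59.3 ± 12.5 to 26.9 ± 9.93 normalized counts (SD, n = 5 each), a log2 difference of -1.15 ± 0.24 (SE, limma, adjusted p = 0.0134). Ppargc1a, the coactivator of mitochondrial biogenesis, fell by 0.52 on the log2 scale (limma, adjusted p = 0.0472). The genotypes did not overlap for Tpp1, Neu1, Ctsb, Psap, Clcn7 and Ppargc1a, and they overlapped for Hexa. Clcn7 and Gabarapl1 passed in 10 of 10 fits that left out 1 kidney. The other 7 genes did not pass without Rragc +/+ replicate 1 or without Rragc +/+ replicate 2, and they lost the call in 4 of 10 such fits (Hexa and Gabarap), 6 (Tpp1 and Neu1) or 8 (Ctsb, Psap and Ppargc1a). Tpp1 did not pass in DESeq2 and Psap did not in edgeR. Scaled to equal totals, Neu1, Ctsb, Psap and Ppargc1a did not pass, and without the variance trend Clcn7 and Gabarapl1 were the 2 of the 9 that did. All 9 markers of the distal convoluted tubule and 5 of 10 of the thick ascending limb fell in the same kidneys, as given above. Their part in these values was not tested.

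**Figure D4:**
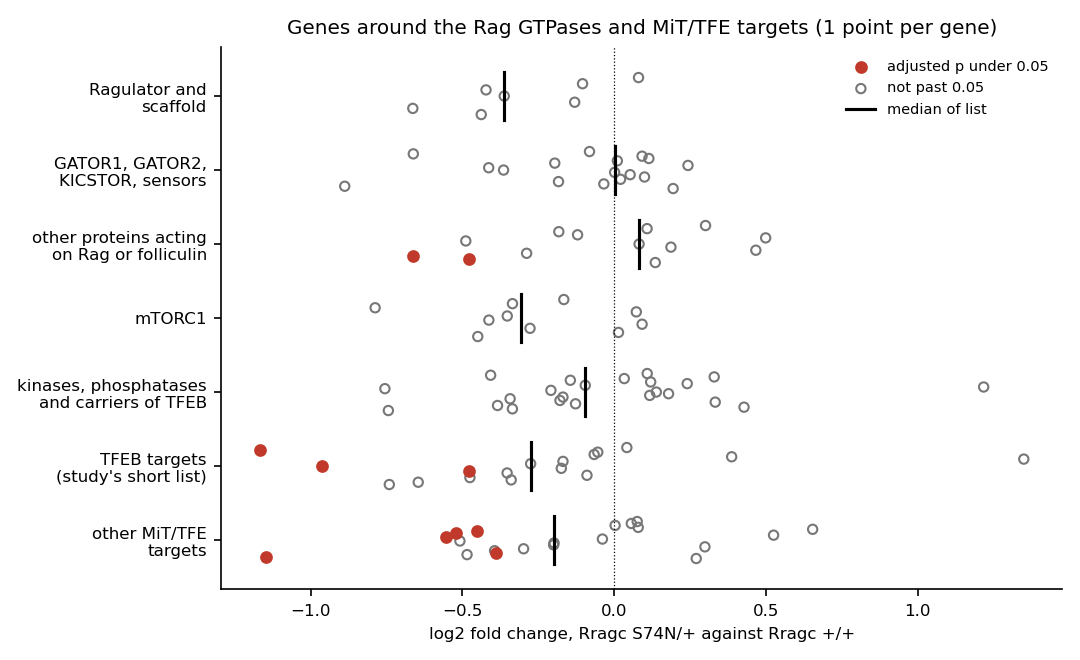
Log2 fold change of Rragc S74N/+ against Rragc +/+ kidneys (x axis) for each gene (1 point) of 7 lists (rows), with the list median as a bar. Filled points passed at an adjusted p under 0.05 (limma), and Gabarap stands on 2 lists. All 9 genes that passed lie to the left of 0.

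Genes with the most similar profile were listed for Rragd and Flcn as a description, from 13235 other genes over 10 kidneys that share the same libraries. Over the 10 kidneys Rragd was followed most closely by Cxxc5 (r = 0.918), Rbm45 (r = 0.918) and Dpep1 (r = 0.892), and after removal of the group means by Tcf24 (r = 0.96), Trmt44 (r = 0.941) and Ttc19 (r = 0.921). Flcn was followed by Med27 (r = 0.951), Gpank1 (r = 0.925) and Phyhip (r = 0.921), and after removal of the group means by Mfsd8 (r = 0.923), Med27 (r = 0.915) and Pih1d2 (r = 0.898). Med27, a subunit of the Mediator complex, was the gene on both lists of Flcn. Of the listed genes, Phyhip alone passed between genotypes (limma, adjusted p = 0.0398), and none was on the lists of the circuit.

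The log2 fold changes of the 9 genes kept their sign in every other fit over both title ranges, and among these genes Rraga and Fnip1 alone passed in any. On the 8 libraries that met a stricter check of their read steps, DESeq2 called Rraga and Fnip1 and 10.6% of all genes. On the same 8, edgeR called Rraga and 6.43% of all genes, and limma called Rraga and 6.3%. The 2 libraries left out, Rragc +/+ replicate 5 and Rragc S74N/+ replicate 3, held the lowest wild-type value of Rraga (27.9) and its highest mutant value (32.0). That mutant kidney also had the highest mutant value of Fnip1 (188), the only one above a wild-type kidney. These calls therefore rest on leaving out kidneys that ran against the difference.

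**Figure D5:**
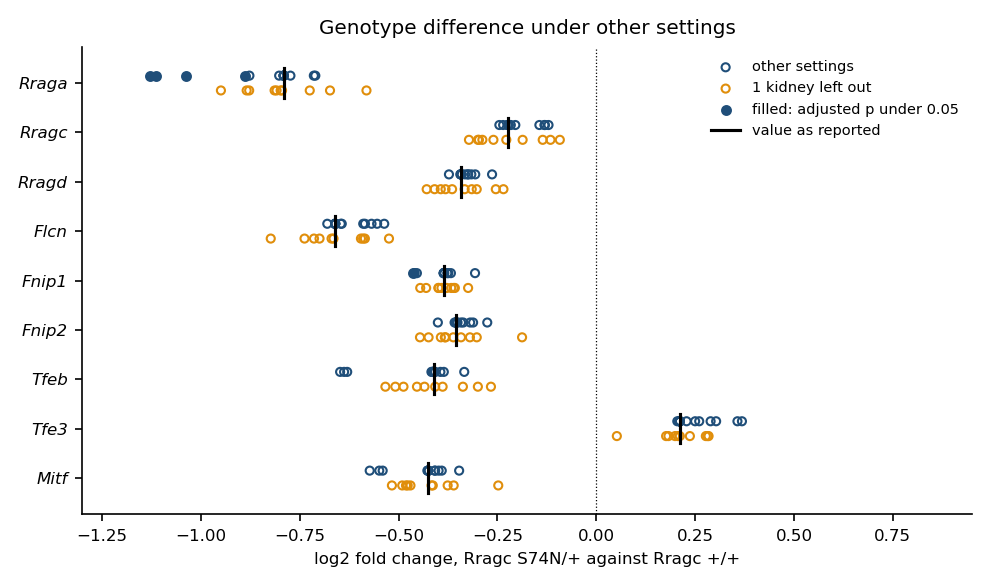
Log2 fold change of Rragc S74N/+ against Rragc +/+ kidneys (x axis) for each gene (rows) as reported (black bar), in other settings (upper points) and with 1 kidney left out (lower points). Filled points passed at an adjusted p under 0.05, which happened in 4 settings for Rraga and in 1 for Fnip1. Tfe3 stays right of 0 and the other genes left of it.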

How the data were processed

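Total RNA of 10 whole kidneys was turned into oligo-dT primed 3′ libraries (300 ng, quality scores 6.2 to 7). The authors checked reads with FastQC 0.11.7, aligned them to GRCm39 with TopHat2 2.0.10, Bowtie 1.0.0 and SAMtools 0.1.19, and counted them on the sense strand with HTSeq 0.6.1. The deposited signal values are counts that the authors divided by a size factor per library. The table holds no gene with a mean under 4.37, by a rule not given in the sources used here. Log2 of the value plus 1 was modelled in limma 3.58.1 (R 4.3.3, eBayes trend, genotype as the only term, at least 5 normalized counts in at least 5 kidneys), with Benjamini-Hochberg adjustment over 13236 genes, two-sided, at 0.05. This scale understates changes of low genes. For single values, all 252 allocations of the kidneys gave an exact permutation test, two-sided, with a smallest p of 0.00794. Whole reads went into edgeR 4.0.16 (quasi-likelihood) and DESeq2 1.42.0 as alternatives, since 100% of the values in each library were whole multiples of 1 read within 0.001. For 2 libraries, Rragc +/+ replicate 5 and Rragc S74N/+ replicate 3, the step was too near 1 for a stricter check, so fits on the other 8 were added after the data were seen. The limma fit was tested on simulated data, and the edgeR and DESeq2 fits were not. Replicate numbers follow the order of deposit. The members, the gene lists and the tests were chosen with earlier results of these data known. Named were all members, the pathway genes past the threshold, and the 3 genes most correlated with Rragd and with Flcn. The p-values of the fits set a genotype difference against the spread between these mice, with variances moderated across genes.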

Additional observations from a re-analysis of the deposited data

Results flagged for a closer look

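In 26 groups of 5 kidneys, the 9 genes and the 4 shares in each genotype, no kidney stood far enough from the nearest other kidney to pass Dixon's 95% limit of 0.71. Rragc S74N/+ replicate 1 came close to the limit for Tfe3, at 204 normalized counts against 107 to 135 in the other mutant kidneys. Chance alone would flag about 1.3 such groups.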

How the results depend on the processing

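No paired analysis was made, because the kidneys come from different mice and the labels do not give the litter. Every one of the 9 genes kept the sign of its log2 fold change in all fits run: other pseudocounts, filters, scalings, variance models, the title number ranges as a block, edgeR, DESeq2, fits on 8 libraries and fits without 1 kidney. With a mean of at least 50 normalized counts required, Rraga and Flcn were not tested. The number of these genes past the threshold was 0 as reported and in every fit without 1 kidney, 1 in DESeq2 on all kidneys, 2 in DESeq2 on 8, and 1 in edgeR and in limma on 8, and it was 2 at an adjusted p under 0.1. On the 8 libraries Rraga passed in DESeq2, edgeR and limma (adjusted p = 0.014, 0.0423 and 0.0492) and Fnip1 in DESeq2 (adjusted p = 0.0465). These 8 lack the lowest wild-type and the highest mutant kidney for Rraga, and the highest mutant kidney for Fnip1. Rragd ranged from -0.43 to -0.23 (adjusted p 0.18 to 0.434) and Flcn from -0.82 to -0.52 (adjusted p 0.107 to 0.401).

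Of all genes, 798 passed as reported, 391 without the variance trend, 1351 in DESeq2 on all kidneys, 1402 on 8, 187 at 0.01, 1661 at 0.1. Leaving out 1 kidney gave 311 to 902. The count was 368, 311 and 383 when the kidney left out was wild-type replicate 1, 2 or 4, and 371 when it was mutant replicate 5. Of the pathway genes, 9 passed as reported, and 2, 15, 14, 1 and 17 in the same settings. Without 1 kidney 2 to 13 passed. The count was 2, 2 and 3 when wild-type replicate 1, 2 or 4 was left out, and 5, 4 and 3 when mutant replicate 2, 4 or 5 was. The cause was not tested. The shares of Rragd, Tfeb and Tfe3 kept their direction, without a call, in 11 of 11 alternatives each. The difference in the Fnip2 share ran from -1.60 to 3.10 percentage points without 1 kidney and was -0.68 without Rragc S74N/+ replicate 4 and -1.60 without replicate 5. Depth limits Flcn and Rraga most.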

Other observations

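Beside the distal convoluted tubule, thick ascending limb and macrophage lists, limma called 1 of 12 proximal tubule markers (lower), 2 lower and 1 higher of 7 intercalated cell markers, and, as higher, 2 of 6 podocyte, 1 of 4 T cell, 1 of 3 neutrophil and 3 of 7 fibroblast markers. It called 0 of 7 principal cell, 0 of 7 endothelial and 0 of 5 B and plasma cell markers, of which 0, 2 and 3 had an unadjusted p under 0.05 and DESeq2 called 0, 1 and 1 (edgeR called 0). Kap, a proximal tubule transcript, had 94161 ± 14920 normalized counts in Rragc +/+ kidneys (SD, n = 5).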
